A study of Mus musculus with 9 samples.

Results

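Serpins are proteins that trap proteases: a protease that cuts the exposed reactive loop of an inhibitory serpin is carried along as the loop folds into the body of the protein and stays locked in a covalent complex. The family is sorted into lettered clades by sequence. Clade A holds extracellular serpins, many of them made by hepatocytes and secreted into plasma, among them hormone carriers that inhibit no protease. Clade B holds intracellular serpins of leukocytes and epithelia. The small clades hold inhibitors of coagulation, fibrinolysis and complement together with members, such as a collagen chaperone, that inhibit no protease. The members described here are the genes whose symbol is Serpin, a clade letter from a to i and a number, 48 of the 19938 genes that had a probe set annotated to a single gene. They were picked by name, a rule that uses no measured value, although earlier results of these data were known when the family was chosen.

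The 9 samples were pools of liver RNA from 5 male C57BL/6J mice each, and each pool was hybridised to 1 Affymetrix Mouse Gene 1.0 ST array. After a run-in on a low fat-normal protein diet that all mice received, HP pools came from mice on a diet with 50% of energy as protein and NP pools from mice on 15%, each at 10% (LF) or 35% (HF) of energy as fat. The 8 diet pools were thus LF-HP, HF-HP, LF-NP and HF-NP after 1 week (mice aged 13 weeks) and after 12 weeks (aged 22 weeks by the labels, which is less than the age at week 0 plus 12 weeks of diet), and the ninth pool was LF-NP at week 0 (aged 12 weeks). Carbohydrate supplied the rest of the energy, 40% in LF-HP, 15% in HF-HP, 75% in LF-NP and 50% in HF-NP. At each fat level more protein thus came with less carbohydrate, and these changes cannot be told apart. All mice had been habituated to a calibrated meal, given to them 2 h before they were killed. Values are log2 expression from the RMA method, where a difference of 1 is a doubling. HP was compared with NP over 4 pools against 4 in a limma model with fat level and week as further terms, with p-values adjusted over all 19938 genes by the Benjamini-Hochberg method and a threshold of 0.05. No diet and week had a second pool, so the errors and p-values measure the spread between pools that differ in fat level and week, not between mice.

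The arrays resembled each other closely, with correlations between pools of 0.993 to 0.997 over all genes and array medians that lay within 0.064 of each other. All 12 hepatocyte markers examined, among them albumin, were above background in these pools. The background level, 4.75, was the 95th percentile of the mean values of 1194 olfactory and vomeronasal receptor genes, which liver has no known use for. Among the 7 adipocyte markers with a value, adiponectin (Adipoq) reached at most 3.4 and leptin (Lep) at most 4.47 in any pool, both below that level, while 4 of the 7 were above it on average (Fabp4 at 6.77, Plin1 at 5.16, Slc7a10 at 5.04 and Retn at 5.02) and 0 passed the HP against NP test.

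The results turned mainly on Serpina12 and its neighbours on chromosome 12, and the windows from 250 bases before to 50 bases after the start of Serpina12 and Serpina11 are shown because these members above background had the largest HP minus NP differences. The windows of Serpina1c and Serpina1d, which code for forms of alpha-1 antitrypsin, are shown because this pair of near-copies moved together across the pools. All are RefSeq sequence of GRCm38.p6 on the minus strand, at chr12:104044394-104044693 for Serpina12, chr12:103989908-103990207 for Serpina11, chr12:103904901-103905200 for Serpina1c and chr12:103773584-103773883 for Serpina1d, written 5′ to 3′ with the 6 bases GTTAAT in capitals, the core of the site read by the hepatocyte factor HNF1.
Serpina12: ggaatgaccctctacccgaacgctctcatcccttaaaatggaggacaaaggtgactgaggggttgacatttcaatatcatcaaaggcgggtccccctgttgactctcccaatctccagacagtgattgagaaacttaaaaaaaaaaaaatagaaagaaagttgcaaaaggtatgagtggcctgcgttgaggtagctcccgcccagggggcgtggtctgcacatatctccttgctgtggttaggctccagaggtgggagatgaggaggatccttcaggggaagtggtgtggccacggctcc
Serpina11: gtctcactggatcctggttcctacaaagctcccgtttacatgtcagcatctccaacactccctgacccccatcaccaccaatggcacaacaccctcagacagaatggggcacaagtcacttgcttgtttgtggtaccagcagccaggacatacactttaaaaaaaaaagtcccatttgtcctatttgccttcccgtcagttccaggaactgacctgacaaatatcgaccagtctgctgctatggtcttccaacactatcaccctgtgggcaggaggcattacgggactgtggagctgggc
Serpina1c: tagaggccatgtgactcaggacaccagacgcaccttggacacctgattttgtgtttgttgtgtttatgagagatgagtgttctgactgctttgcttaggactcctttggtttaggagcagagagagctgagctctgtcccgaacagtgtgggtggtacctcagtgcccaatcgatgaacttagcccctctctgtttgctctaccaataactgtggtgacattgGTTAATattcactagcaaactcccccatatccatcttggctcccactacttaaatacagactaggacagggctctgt
Serpina1d: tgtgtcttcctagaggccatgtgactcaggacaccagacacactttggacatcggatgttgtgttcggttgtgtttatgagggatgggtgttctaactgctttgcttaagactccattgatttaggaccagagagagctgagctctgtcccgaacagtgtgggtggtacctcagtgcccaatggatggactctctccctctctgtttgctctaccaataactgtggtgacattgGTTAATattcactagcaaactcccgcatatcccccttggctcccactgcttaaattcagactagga

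Serpina1c and Serpina1d shared an unbroken run of 63 bases that contains the GTTAAT, which begins at position -27 relative to the listed start of Serpina1c and at -16 relative to that of Serpina1d. The longest run shared by Serpina12 and Serpina11 was 12 bases, nearly all A. A promoter window was found for 41 of the 48 members, 17 of those above background and 24 of those at or below it. GTTAAT, searched on both strands, stood in 4 of the 17 (Serpina1c, Serpina1d, Serpina7 and Serpinb8) and in 2 of the 24, against 7.2% of all 27025 promoter windows. TATAAA stood in 1 of the 17 and in 10 of the 24, against 14.2% of all windows, so in this family the letters of the TATA box were mostly found before genes that were silent in liver. Of the 27 silent members 20 are of clade B, so silence and clade cannot be told apart in this count. The C/EBP-ATF element TGATGNAA stood in 1 of the 17 (Serpinf1) and 2 of the 24 (4.1% of all windows), and neither CAAAGTCCA, a form of the HNF4 site (0.5% of all windows), nor the E-box CACGTG (7.2%) stood in any of them. The windows of Serpina12 and Serpina11 held none of these 5 strings, which says only that these letters are not in these windows.

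Of the 48 serpins, 21 had a mean over the 9 pools above background and 27 did not (43.8% above, against 68.3% of all genes). Expression followed the clades. In clade A, 10 of 15 members were above background: Serpina1c, Serpina1d, Serpina3n, Serpina4-ps1, Serpina5, Serpina6, Serpina7, Serpina10, Serpina11 and Serpina12. In clade B only 4 of 24 were, Serpinb6a, Serpinb6b, Serpinb8 and Serpinb9, and the 20 silent ones included Serpinb5 (maspin), Serpinb2 (plasminogen activator inhibitor 2) and the Serpinb3 genes of squamous epithelium. The single members of clades C, D, E, G and H and both of clade F were above background, whereas both members of clade I, Serpini1 (neuroserpin) and Serpini2, were not. The members closest to the limit were Serpinb8 at 5.00 and Serpine3 at 5.10 above it and Serpina9 at 4.71 and Serpinb1a at 4.70 below it.

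**Figure D1:**
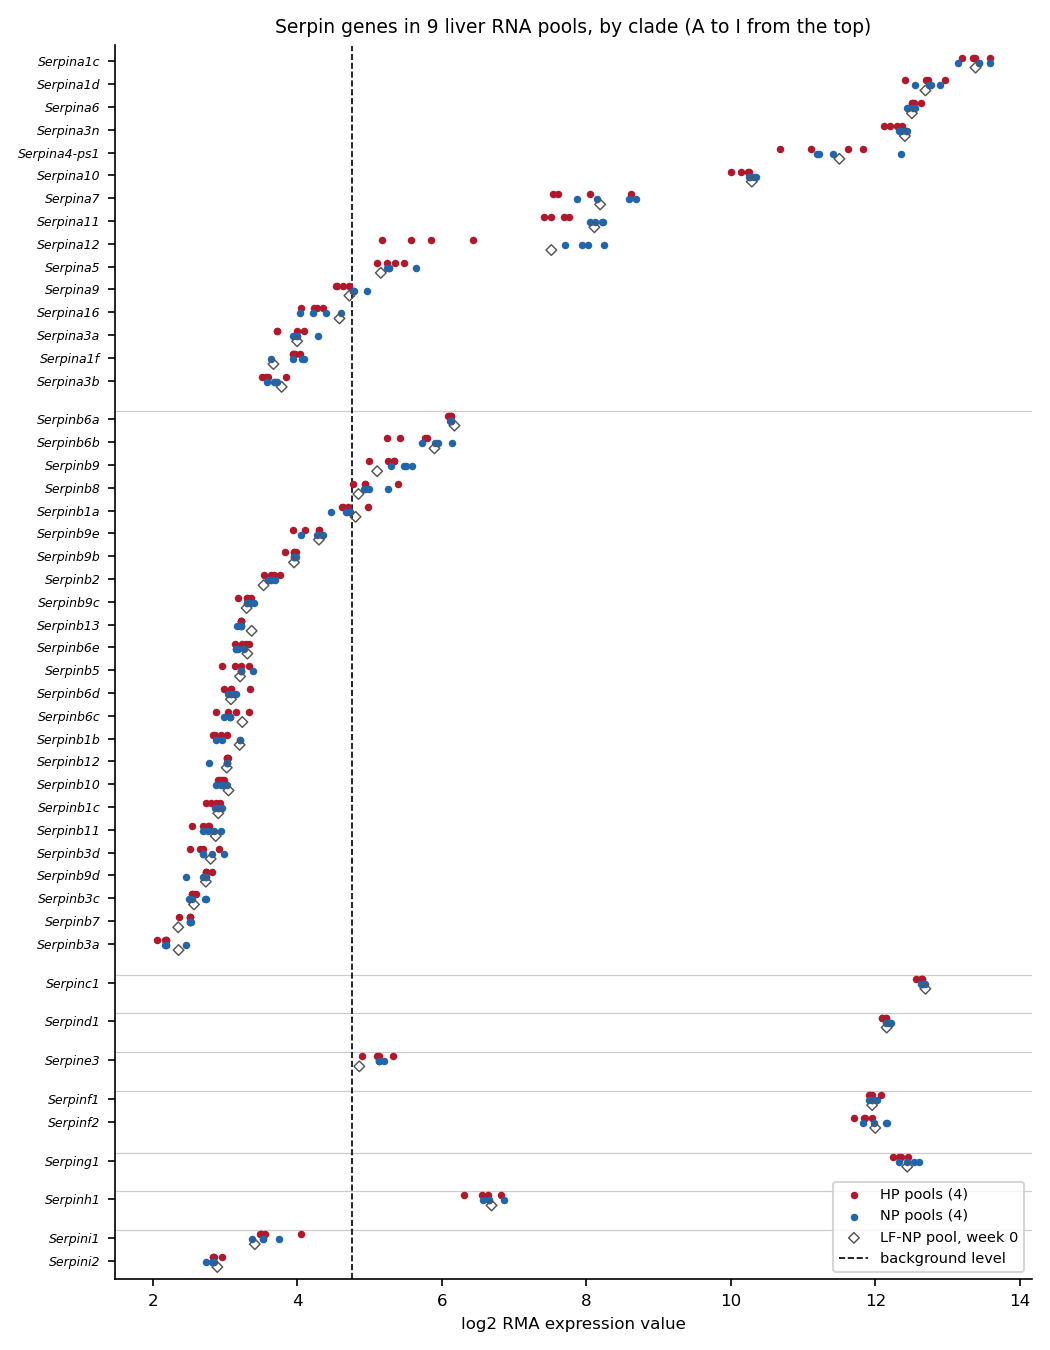
Log2 RMA expression (x axis) of the 48 serpin genes, by clade from A at the top to I and by mean level within a clade. Red points are the 4 HP pools, blue points the 4 NP pools, open diamonds the LF-NP pool of week 0, and the dashed line is the background level of 4.75. Clade A and the small clades lie mostly right of the line and clade B mostly left of it, and Serpina12 is the member whose red and blue points lie farthest apart.

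Serpina12 codes for vaspin, a secreted serpin first known from visceral fat that inhibits the kallikrein Klk7 and improves insulin sensitivity when given to obese mice. In the HP pools its values were 5.16 and 5.57 after 1 week of LF and HF feeding and 6.43 and 5.84 after 12 weeks of LF and HF feeding, against 8.25, 7.70, 8.03 and 7.94 in the NP pools in the same order. The week 0 pool had 7.51. The highest HP pool thus lay below every NP pool and below the week 0 pool, while all HP pools remained above background. The mean was 5.75 ± 0.53 in HP pools and 7.98 ± 0.22 in NP pools (SD, n = 4 each), and Serpina12 fell by 2.23 ± 0.21 on the log2 scale (standard error), 4.68-fold lower with HP feeding (limma adjusted p = 0.0137). It was the only serpin past the threshold: 1 of 48 members was lower and 0 were higher, against 0.271% lower and 0.171% higher over all genes. Taken by itself, with an exact permutation test over the 70 ways to split the 8 pools, the two-sided p was 0.0286, the smallest that this design allows. Any gene whose HP and NP pools do not overlap gives this value, so it only restates the separation. Over all genes 2.91% had HP below NP without overlap and 1.88% had HP above NP.

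The HP minus NP difference of Serpina12 in pools of the same fat level and week was -3.08 (LF) and -2.13 (HF) after 1 week and -1.59 (LF) and -2.10 (HF) after 12 weeks. It was smaller at 12 weeks than at 1 week by 0.76 ± 0.33 in the interaction term of protein with week and differed by 0.22 ± 0.43 between HF and LF, and neither term passed the test (adjusted p = 1.0 and 0.904). With each of the 8 diet pools left out in turn the HP minus NP difference stayed between -2.42 and -1.98, and 3 of the 8 fits passed the threshold (adjusted p = 0.0207 to 0.076). The call was lost without the LF-NP or the HF-NP pool of 1 week (adjusted p = 0.0643 and 0.076), without the LF-NP or the HF-NP pool of 12 weeks (0.0632 and 0.0755) or on omitting HF-HP at 12 weeks (0.0745). Since the arrays measured whole liver, fewer cells that express a gene and less RNA per cell cannot be told apart, here and in the results that follow.

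Serpina11, a secreted serpin whose function is little known, lies close to Serpina12 on chromosome 12 and showed a smaller difference of the same sign. Its HP pools had 7.51 and 7.76 after 1 week and 7.69 and 7.42 after 12 weeks (LF, then HF), against 8.21, 8.12, 8.23 and 8.06 in the NP pools in the same order and 8.11 at week 0. The HP pools did not overlap the NP pools. The mean was 7.60 ± 0.16 in HP pools and 8.15 ± 0.08 in NP pools (SD, n = 4 each), a difference of -0.56 ± 0.09 (standard error) that missed the threshold (limma adjusted p = 0.0515). With single pools left out its adjusted p was 0.0493 to 0.215, past the threshold only on omitting HF-HP at 1 week. The matched differences were -0.70 and -0.36 after 1 week and -0.53 and -0.64 after 12 weeks. The exact permutation p was 0.0286, again the smallest possible and the value of any gene whose pools do not overlap.

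Serpina9, known in humans as centerin of germinal-centre B cells, lies between these genes. Its values were 4.53 and 4.72 after 1 week and 4.55 and 4.63 after 12 weeks in HP pools (LF, then HF), against 4.96, 4.77, 4.79 and 4.76 in NP pools and 4.72 at week 0. These values straddle the background level, and the difference of -0.21 ± 0.07 did not pass the test (adjusted p = 0.339). Serpina12, Serpina11 and Serpina9 were the 3 of 48 members whose HP pools all lay below all NP pools, against 2.91% of all genes, and 2 of these 3 were above background. In 0 members did all HP pools lie above all NP pools, against 1.88% of all genes.

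**Figure D2:**
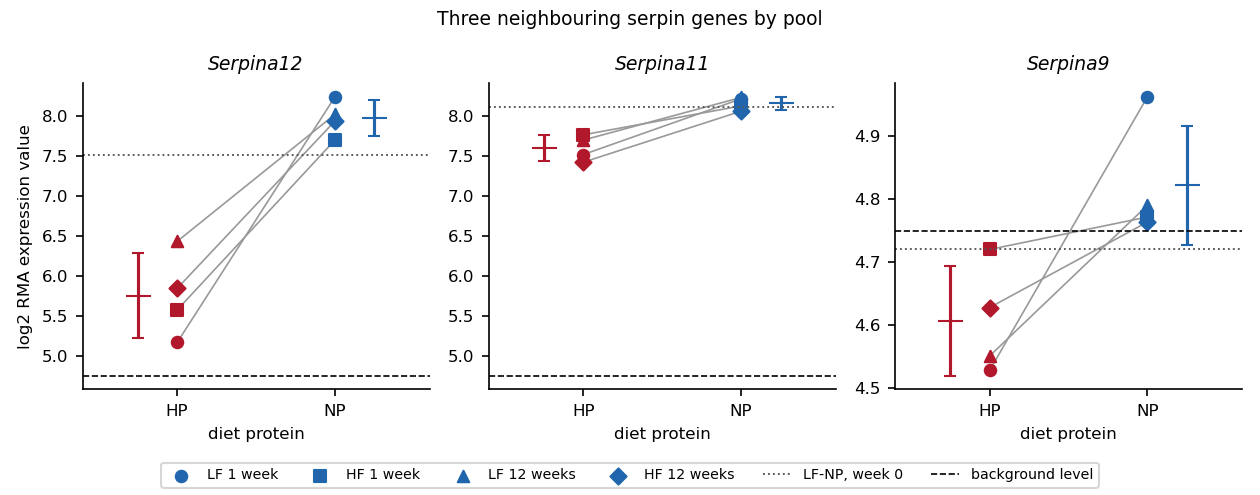
Log2 RMA expression of Serpina12, Serpina11 and Serpina9 in each diet pool, HP left and NP right, with a line between pools of the same fat level and week and the mean ± SD (n = 4) beside the points; each panel has its own y scale. The dotted line is the week 0 pool and the dashed line the background level of 4.75. All 4 lines of each panel run from a lower HP pool to a higher NP pool, with a fitted HP minus NP difference of -2.23 for Serpina12 and -0.56 for Serpina11.

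In the gene order of RefSeq (GRCm38.p6), the 14 clade A members of chromosome 12 with a value run from Serpina10, Serpina6, Serpina16 and Serpina1f over Serpina1d, Serpina1c, Serpina11, Serpina9 and Serpina12 to Serpina4-ps1, Serpina5, Serpina3a, Serpina3b and Serpina3n. The genes whose pools did not overlap, Serpina11, Serpina9 (whose mean was at or below background) and Serpina12, were thus consecutive among the measured genes. Their immediate neighbours were Serpina1c, at -0.02 ± 0.09, and Serpina4-ps1, at -0.24 ± 0.33, and the other 9 members of the cluster lay between -0.17 and 0.06. Of the 13 measured genes that are not serpins and lie within 500 kb of the cluster, 12 were above background and 0 passed the test, with HP minus NP differences from -0.20 (Ifi27l2a) to 0.26 (Ppp4r4).

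**Figure D3:**
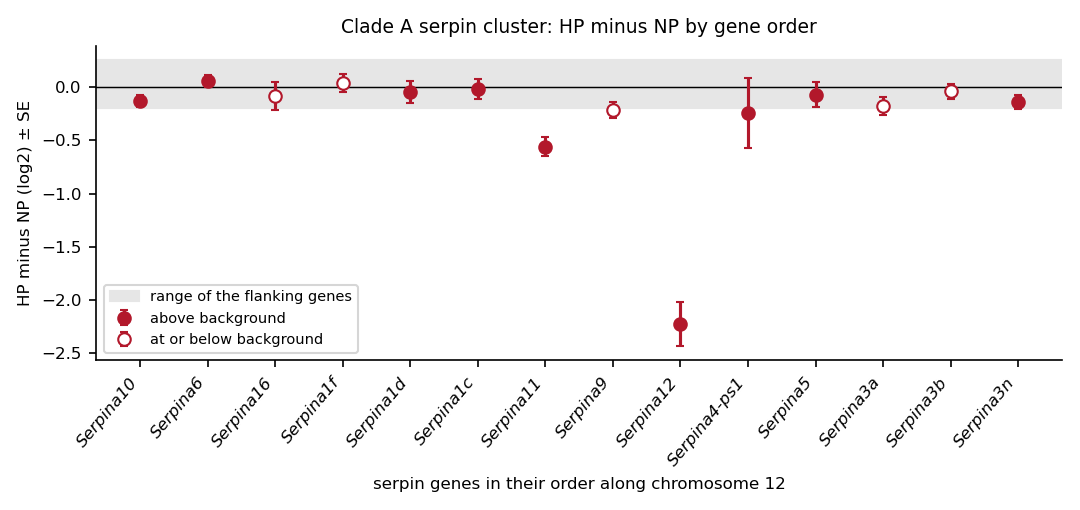
HP minus NP difference (log2, ± standard error of the fit over 4 HP and 4 NP pools) of the 14 serpin genes on chromosome 12 in their order, with equal spacing. Filled points are members above background, open points members at or below it, and the grey band is the range of the 13 flanking genes, -0.20 to 0.26. Serpina11 and Serpina12 lie well below the band. Serpina9 (-0.21) and Serpina4-ps1 (-0.24, with a standard error of 0.33) lie just below it.

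Other clade A members carry hormones or inhibit plasma proteases, and 0 of them passed the test. Serpina7, the thyroxine-binding globulin, varied widely, with 7.54 and 8.05 after 1 week and 8.61 and 7.61 after 12 weeks in HP pools (LF, then HF), against 8.15, 7.87, 8.68 and 8.59 in NP pools. The groups overlapped, and the difference of -0.37 ± 0.21 had an adjusted p of 0.647. It was -0.14 without the HF-HP pool of 12 weeks, -0.23 without LF-HP at 1 week and -0.59 without HF-HP at 1 week. Serpina6, the corticosteroid-binding globulin, had 12.51, 12.63, 12.54 and 12.51 in HP pools, against 12.44, 12.44, 12.52 and 12.54 in NP pools, a difference of 0.06 ± 0.06 (adjusted p = 0.82). It was 1 of the 2 members above background with a positive difference, the other being Serpinf1, whose difference turned to -0.0022 with array weights.

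Serpina10, the protein Z-dependent inhibitor of coagulation factor X, had 10.01, 10.14, 10.24 and 10.25 in HP pools, against 10.26, 10.25, 10.34 and 10.32 in NP pools (-0.13 ± 0.06, adjusted p = 0.495). Serpina3n, an acute phase serpin that inhibits granzyme B, had 12.37, 12.20, 12.30 and 12.12 in HP pools, against 12.42, 12.33, 12.35 and 12.43 in NP pools (-0.14 ± 0.06, adjusted p = 0.548). Both were lower with HP in each of the 4 matched comparisons, by amounts within the spread of the pools. Serpina4-ps1, annotated as a pseudogene, had the second widest range over the 9 pools, 1.68, with 10.67, 11.83, 11.62 and 11.10 in HP pools, against 12.36, 11.22, 11.41 and 11.19 in NP pools. Its matched differences were -1.68 and 0.61 after 1 week and 0.21 and -0.09 after 12 weeks, and the fitted difference of -0.24 ± 0.33 turned to 0.17 without the LF-HP pool of 1 week and to 0.07 without the LF-NP pool of 1 week.

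The Serpina1 genes code for alpha-1 antitrypsin, the plasma inhibitor of neutrophil elastase, and mice have several near-identical copies. Serpina1d had 12.72, 12.41, 12.96 and 12.70 in HP pools, against 12.55, 12.77, 12.73 and 12.89 in NP pools. Serpina1c had 13.35, 13.19, 13.58 and 13.38 in HP pools, against 13.13, 13.43, 13.43 and 13.58 in NP pools. Both genes were higher with HP in the LF pools and lower with HP in the HF pools, at 1 week and at 12 weeks, so that the mean differences were near 0 (-0.04 ± 0.10 and -0.02 ± 0.09). The interaction of protein with fat was -0.48 ± 0.12 for Serpina1d and -0.40 ± 0.11 for Serpina1c, and neither passed the test (adjusted p = 0.626 and 0.678). Probes of these copies can bind each other's transcripts, so these genes are not independent members, although each is counted in the totals of the family. Serpina1f, a copy at or below background, had 3.94, 3.97, 3.95 and 4.03 in HP pools, against 4.06, 4.09, 3.63 and 3.95 in NP pools.

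Of the plasma inhibitors outside clade A, Serpinf2 (alpha-2-antiplasmin, the inhibitor of plasmin) differed most. It had 11.95, 11.86, 11.85 and 11.70 in HP pools, against 12.14, 12.15, 11.98 and 11.83 in NP pools, and was lower with HP in each of the 4 matched comparisons by 0.12 to 0.29. The HP and NP ranges overlapped, and the HP minus NP difference of -0.18 ± 0.06 did not pass the test (adjusted p = 0.316). Serping1, the C1 inhibitor of complement and kallikrein, had 12.32, 12.35, 12.45 and 12.25 in HP pools, against 12.32, 12.43, 12.60 and 12.53 in NP pools (-0.13 ± 0.07, adjusted p = 0.645). Its difference was -0.04 in the 1-week pools and -0.21 in the 12-week pools, and -0.065 without HF-HP at 12 weeks.

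The thrombin inhibitors varied little. Serpinc1 (antithrombin) had 12.63, 12.56, 12.65 and 12.64 in HP pools, against 12.64, 12.68, 12.66 and 12.65 in NP pools (-0.03 ± 0.05, adjusted p = 0.895). Serpind1 (heparin cofactor II) had 12.09, 12.15, 12.15 and 12.09 in HP pools, against 12.22, 12.15, 12.20 and 12.19 in NP pools (-0.07 ± 0.05, adjusted p = 0.752). Each varied by 0.13 over all 9 pools, less than the median range of 0.38 over all genes above background. Serpinf1, the pigment epithelium-derived factor, had 11.96, 11.91, 12.07 and 11.93 in HP pools, against 12.01, 11.95, 11.95 and 11.90 in NP pools (0.01 ± 0.06). Serpinh1, the collagen chaperone HSP47 of the endoplasmic reticulum, had 6.64, 6.82, 6.30 and 6.56 in HP pools, against 6.66, 6.86, 6.57 and 6.66 in NP pools (-0.10 ± 0.06, adjusted p = 0.667).

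In clade B, the intracellular serpins Serpinb6b and Serpinb9 were lower in HP pools on average, without passing the test. Serpinb6b had 5.41, 5.79, 5.23 and 5.77 in HP pools, against 5.90, 6.14, 5.95 and 5.72 in NP pools (-0.38 ± 0.12, adjusted p = 0.293). Serpinb9, which protects cytotoxic lymphocytes from their own granzyme B, had 5.26, 4.99, 5.34 and 5.34 in HP pools, against 5.29, 5.59, 5.50 and 5.48 in NP pools (-0.23 ± 0.09, adjusted p = 0.452). The ranges of HP and NP overlapped for both, and the LF-HP pools had the lowest Serpinb6b values. The mean level of 9 lymphocyte and NK cell markers was 4.12 to 4.26 in HP pools and 4.30 to 4.43 in NP pools, with 8 of 9 markers lower on average, 0 past the test and 3 above background. The week 0 pool, also on the NP diet, had 4.21, within the range of the HP pools. The mean level of 9 macrophage and Kupffer cell markers was 7.29, 7.93, 7.55 and 8.02 in HP pools, against 7.68, 7.63, 7.99 and 7.97 in NP pools, so that among the 8 diet pools it too was lowest in the LF-HP pools, with 7.49 at week 0. The part of these cells in the clade B values was not tested.

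Serpinb6a and Serpinb8 hardly moved with protein. Serpinb8, an inhibitor of furin, had 4.93, 4.93, 4.77 and 5.40 in HP pools, against 4.99, 4.92, 4.93 and 5.26 in NP pools (-0.02 ± 0.11). Serpinb6a had 6.09, 6.12, 6.08 and 6.12 in HP pools and 6.12 in all NP pools. Serpinb1a, a leukocyte elastase inhibitor just below background, had 4.98, 4.61, 4.63 and 4.70 in HP pools, against 4.68, 4.73, 4.68 and 4.47 in NP pools. Serpini1, the neuroserpin of neurons, had 4.06, 3.55, 3.48 and 3.50 in HP pools, against 3.53, 3.37, 3.74 and 3.52 in NP pools, all below background. Of the 48 members, 26 had exactly the same value in 2 or more pools, 17 of them at or below background.

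Over the 21 serpins above background, 19 had a negative HP minus NP difference (90.5%, against 53.2% of all genes above background) and the median was -0.10, against -0.01. Without Serpina12 the median of the remaining 20 was -0.09. In 9 of the 21 the difference was negative in each of the 4 matched comparisons, against 10.3% of all genes above background, and in 0 was it positive in each, against 7.2%. The median was -0.13 over the 10 clade A members (9 negative), -0.12 over the 4 clade B members (4 negative) and -0.07 over the 5 members of clades C, D, F and G (4 negative). The 27 silent members had 16 negative and 11 positive differences with a median of -0.04. At an unadjusted p under 0.05, 6 of 48 members were lower with HP (Serpina12, Serpina11, Serpina9, Serpinb6b, Serpinb9 and Serpinf2) and 0 were higher, against 5.66% and 4.59% of all genes. The serpins above background thus mostly lay slightly below 0, by amounts that, Serpina12 apart, did not pass the test across all genes.

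**Figure D4:**
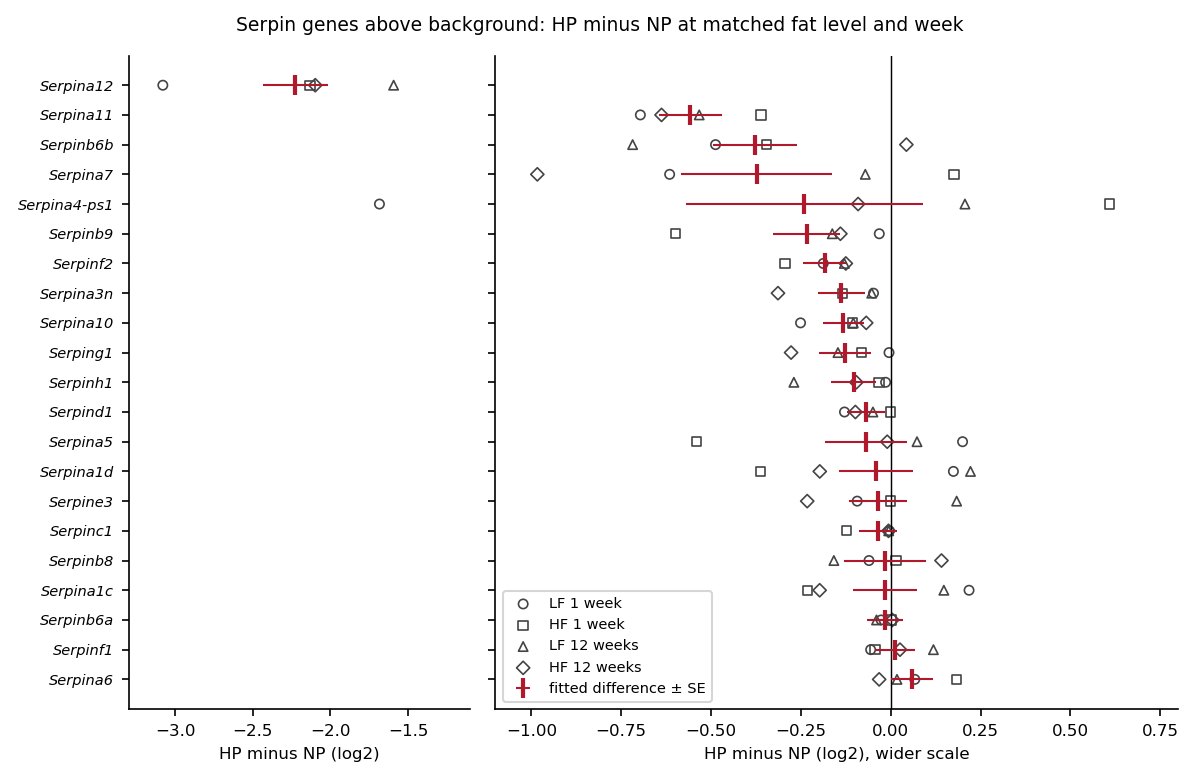
HP minus NP difference (log2) of the 21 serpin genes above background. Open symbols are the 4 comparisons of pools matched for fat level and week, and the red tick with its bar is the fitted difference ± standard error (4 HP against 4 NP pools). The left panel, with a narrower scale, holds the lowest values of Serpina12 and Serpina4-ps1. Of the 21 fitted differences 19 lie left of 0, most of them within 0.4 of it, and Serpina12 lies at -2.23.

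Fat level and time had weaker relations with the family. Comparing HF with LF, 0 of 48 serpins passed the limma test (0% of all genes, smallest adjusted p of a serpin 0.999), and 2 had an unadjusted p under 0.05, against 3.33% of all genes: Serpinh1, higher with HF by 0.18 ± 0.06, and the silent Serpina3a. Comparing 12 weeks with 1 week, 0 serpins passed (0.00502% of all genes, smallest adjusted p of a serpin 0.564), and 3 had an unadjusted p under 0.05, against 7.71% of all genes. These were Serpinh1 (-0.22 ± 0.06), Serpinf2 (-0.19 ± 0.06) and Serpina1c (0.22 ± 0.09). For the interaction of protein with fat, 0 serpins passed (0% of all genes) and 4 had an unadjusted p under 0.05, against 7.02% of all genes, namely Serpina1d, Serpina1c, Serpinb6b (0.45 ± 0.17) and the silent Serpinb9e. For protein with week, 0 passed (0% of all genes) and 2 silent members, Serpina16 and Serpini1, had an unadjusted p under 0.05, against 2.62% of all genes.

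Set against the single week 0 pool, with no test, the median difference of the 21 serpins above background was -0.05 in LF-HP and -0.10 in HF-HP pools after 1 week and -0.01 and -0.05 in the same diets after 12 weeks. In NP pools it was 0.01 in both LF-NP and HF-NP after 1 week and 0.05 and 0.03 after 12 weeks. These comparisons share the week 0 pool, and the small ones depend on the scaling. With each array centred on its median the differences were -0.05 in LF-HP and -0.17 in HF-HP pools after 1 week and -0.05 and -0.06 after 12 weeks, and in NP pools they were -0.0091 in LF-NP and -0.0003 in HF-NP after 1 week and 0.02 and -0.0093 after 12 weeks, so that 3 of the 4 NP pools changed sign. Serpina12 was below the week 0 pool in all 4 HP pools and above it in all 4 NP pools.

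Among genes that serpins act with, few passed the test. Of 29 proteases, most of them inhibited by serpins, 0 were lower and 1 was higher with HP, against 0.271% and 0.171% of all genes. The higher one was Ctsl, the lysosomal cathepsin L, with 11.72, 11.99, 11.57 and 11.71 in HP pools, against 11.35, 11.29, 11.22 and 11.11 in NP pools (0.50 ± 0.08, adjusted p = 0.0499). The median of the 29 was -0.06, and at an unadjusted p under 0.05 6 were lower and 3 higher, against 5.66% and 4.59% of all genes. Named after their values were seen, Hgfac, which activates hepatocyte growth factor, differed by -0.39 (adjusted p = 0.0515) and C1s1, a complement protease inhibited by Serping1, by -0.38 (adjusted p = 0.089). Klk7, the protease that vaspin inhibits, had 5.14, 5.06, 5.75 and 4.60 in HP pools, against 4.96, 5.16, 5.35 and 5.33 in NP pools, with overlapping groups (adjusted p = 0.958). Of 27 genes outside the family, most of them protease inhibitors, 0 passed in either direction, against 0.271% and 0.171% of all genes. The median of the 27 was -0.04. Itih1 and Itih2, heavy chains of the inter-alpha-trypsin inhibitors, differed by -0.26 (adjusted p = 0.128) and -0.08. The list's largest difference, also named after its value was seen, was that of the complement regulator C4bp, -0.47 (adjusted p = 0.0515). At an unadjusted p under 0.05 3 of the 27 were lower and 1 higher, against 5.66% and 4.59% of all genes. Of 9 receptors and cofactors of serpins 0 passed in either direction, against 0.271% and 0.171% of all genes. At an unadjusted p under 0.05 0 of the 9 were lower and 2 higher, against 5.66% and 4.59% of all genes. Lrp1, which clears serpin complexes, differed by -0.09 and Vldlr by 0.23.

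Of 18 acute phase genes 0 passed in either direction, against 0.271% and 0.171% of all genes. At an unadjusted p under 0.05 4 of the 18 were lower and 3 higher, against 5.66% and 4.59% of all genes. The median of the 18 was -0.01, with differences in both directions. Saa1 and Saa2 differed by 0.06 and 0.32, and, named after their values were seen, Orm2 by 1.44 (adjusted p = 0.118), Apcs by 0.50 (adjusted p = 0.0527) and Steap4 by -0.57 (adjusted p = 0.0978). Of 12 genes of glucocorticoid and thyroid hormone response 1 was lower and 0 were higher, against 0.271% and 0.171% of all genes. At an unadjusted p under 0.05 4 of the 12 were lower and 3 higher, against 5.66% and 4.59% of all genes. The gene past the test was Dio1, the deiodinase that activates thyroxine, with 9.60, 9.59, 9.57 and 9.25 in HP pools, against 10.09, 10.43, 10.19 and 10.41 in NP pools (-0.78 ± 0.11, adjusted p = 0.0455). Its HP pools did not overlap its NP pools, whereas those of the hormone carriers Serpina7 and Serpina6 did.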

How the data were processed

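Liver RNA pools of 5 mice were measured on Affymetrix Mouse Gene 1.0 ST arrays, 1 per pool. The deposited values are log2 expression that the authors made with RMA (background correction, quantile normalisation and summary per probe set). The methods name probe sets regrouped by Entrez Gene, but the table holds the array's own transcript clusters. Of 35556 probe sets, 21789 were annotated to 1 gene symbol, 1621 to several and 12146 to none, and the brightest single-symbol probe set stood for each of 19938 genes. All 48 serpins had exactly 1 such probe set, and 5 more probe sets that list several serpins were not assigned to a gene.

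Pools were grouped by the diet and week in the labels. The week 0 pool entered no fit. limma 3.58.1 in R 4.3.3 fitted protein, fat level and week to the 8 diet pools (4 residual degrees of freedom). Interactions were added singly. The code was tested on simulated data. The members and all gene lists were chosen with earlier results of these data known. Values in every pool are given for serpins past the test, the 6 with the largest protein difference, the 3 with the largest fat and the 3 with the largest week difference among those above background, and a list of well-known serpins. Alternatives were other covariates, filters, scalings, weights, thresholds, subsets of pools and each pool left out. The methods name an Entrez Gene build for the regrouped probe sets only, and that of the array's own transcript clusters is not given in the sources used here. The number of arrays limits the precision.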

Additional observations from a re-analysis of the deposited data

Results flagged for a closer look

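Among the 38 groups of 4 HP or 4 NP pools examined over the serpins above background with pool values given, 1 had a pool that stood apart. The measure was the gap between that pool and the other 3. Serpinb6a had 6.1166 in the HF-NP pool of 12 weeks, against 6.1209 in each of the other 3 NP pools, which share exactly the same value. Chance alone marks about 1 in 20 such groups. Members at or below background were not among the 38 groups, and single pools stood apart there too. Serpina9 had 4.96 in the LF-NP pool of 1 week, against 4.76 to 4.79 in the other NP diet pools. Serpini1 had 4.06 in the LF-HP pool of 1 week, against 3.48 to 3.55 in the other HP pools.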

How the results depend on the processing

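The direction of Serpina12 was the same in all 19 alternatives, and its HP minus NP difference was past the threshold in 10 of them. It was -2.61 with the 1-week pools alone, -1.85 with the 12-week pools alone, -2.34 with the LF pools alone and -2.11 with the HF pools alone, 4 fits of 4 pools each in which 0 serpins passed (adjusted p of Serpina12 = 0.589 to 1.0). Leaving out 1 pool at a time gave -2.42 to -1.98 and counts of 0 to 2 serpins past the test, against 1. The count was 2, with Serpina11 added, at an adjusted p under 0.1, with an intensity trend of the prior variance, with each array centred on its median, with no covariates, with genes above the median level only, with array weights and with the mean of all probe sets per gene. With the matched comparisons as a block the count was 1. The counts of 0 for fat, week and both interactions were 0 in every alternative run. The median over the serpins above background was -0.0739 with the 12-week pools and -0.15 with the HF pools alone, and that of clade A, -0.13 over all diet pools, was -0.25 with the HF pools and -0.0555 with the 12-week pools alone. Directions of members that did not pass the test were less stable, and for most of them leaving out at least 1 of the pools moved the difference by over 1.5 times. With the 12-week pools alone they turned to 0.058 for Serpina4-ps1, -0.0073 for Serpina6, -0.14 for Serpini1 and 0.0123 for Serpina1d. With the HF pools alone they turned to 0.26 for Serpina4-ps1, 0.078 for Serpinb8, -0.0089 for Serpinf1, 0.0036 for Serpinb6a and -0.0185 for Serpina1f. With the LF pools alone they turned to 0.20 for Serpina1d and 0.18 for Serpina1c. With the 1-week pools alone they turned to -0.0498 for Serpinf1 and -0.12 for Serpina1f, and with array weights to -0.0022 for Serpinf1, -0.0009 for Serpina1f and 0.023 for Serpina1c. Leaving out 1 pool at a time gave -0.0859 to 0.0499 for Serpina1c, -0.11 to 0.0396 for Serpina1d, -0.0498 to 0.10 for Serpina1f, -0.50 to 0.17 for Serpina4-ps1, -0.12 to 0.0841 for Serpinb8, -0.0208 to 0.0333 for Serpinf1 and -0.0261 to 0.23 for Serpini1. The cause of these changes was not tested. With 16 serpins above the median of all genes in place of 21 above background, the family median was -0.12. A single pool per diet and week and the dim signal of the silent members limit all of these values.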

Other observations

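Besides the probe sets annotated to a single serpin, 2 probe sets list 5 Serpina1 genes each. They cannot be assigned to a gene, and probes of such copies can bind transcripts of Serpina1c and Serpina1d, so they are no independent measurement. The first had HP minus NP differences of 0.13 (LF) and -0.14 (HF) after 1 week and 0.18 (LF) and -0.22 (HF) after 12 weeks. The second had 0.07 (LF) and -0.12 (HF) after 1 week and 0.09 (LF) and -0.15 (HF) after 12 weeks. In both, as in Serpina1c and Serpina1d, the HP pool lay above the NP pool on LF diets and below it on HF diets at both times, without a test. The other 3 shared probe sets list 4 Serpinb9 genes each and lay below background in all 9 pools.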
